A study of Rattus norvegicus with 174 samples.

Results

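The kidney was examined 6 h after rats had breathed phosphine. The 6 arrays were chosen by sample title alone, 4 from exposed rats (Rat758, Rat760, Rat761 and Rat789) and 2 from air rats (Rat762 and Rat763), out of 30 kidney arrays and 174 arrays in the series. All were adult male Sprague-Dawley rats, an outbred stock. The exposed group inhaled phosphine with the whole body at 660 ppm over 32.2 min, a product of 21252 ppm x min, and the air group breathed 0 ppm over the same 32.2 min. Other kidneys, 4 exposed and 4 air rats at each of 1, 3 and 24 h, were used for the estimate of spread and for comparison. All rats, air groups included, were killed under ketamine and xylazine with exsanguination, so that these agents are shared by both groups. Each array held total RNA of 1 kidney sample, in which all cell types of the tissue are mixed.

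Phosphine is a fumigant gas that reaches the blood through the lung and is known for blocking the mitochondrial respiratory chain at cytochrome c oxidase and for oxidant damage. The kidney depends on mitochondrial respiration, above all in the proximal tubule, whose cells reabsorb salt, glucose, phosphate and amino acids against gradients. Stressed tubule cells are known to switch on a series of programs. The integrated stress response slows protein synthesis while the transcription factor ATF4 raises aminoacyl-tRNA synthetases and the secreted factor Gdf15. NRF2 raises antioxidant and export genes, and epithelial repair brings cytokine receptors, adhesion genes and cytoskeletal genes.

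Signals are log2 values after RMA, a method that corrects background, sets the arrays to a common distribution and summarises the probes of each probe set. Over the kidney arrays the median signal of an array lay between 4.34 and 4.49 (log2), and the median of nonspecific control probe sets was 2.4. Markers of kidney cells were present. The mean of the proximal tubule list ranged from 10.55 to 10.76 in exposed and from 10.71 to 10.72 in air rats, and that of the loop of Henle from 9.63 to 9.70 and from 9.61 to 9.80. That of the distal convoluted tubule ran from 7.31 to 7.50 in exposed and from 7.50 to 7.54 in air rats. The intercalated cell mean was lower in every exposed rat, 7.12 to 7.42 against 7.50 to 7.55, and the part of cell composition in the results was not tested. Adrenal cortex, adrenal medulla and exocrine pancreas markers stood within 0.16 of their kidney medians on all 6 arrays. Lung epithelium markers ran from -0.14 to 0.19 around theirs. Adipocyte markers ran from -0.54 to 0.28 around theirs in exposed and from 0.16 to 0.37 in air rats. Of 7 measured adipocyte markers 1 was above 0, the median change was -0.355, and none was called (0.35% of all genes were). Exposed Rat761 differed from the other 5 in liver genes, with a mean of hepatocyte markers of 6.69, against 3.87 to 3.95 in the other exposed rats and 4.0 and 4.31 in the air rats. Of 10 measured hepatocyte markers none was called at 6 h (0.35% of all genes were), 9 were above 0 and the median change was 0.467. None of the called genes is one of them. RNA integrity was read from the log2 signal at the 3' end of control transcripts minus that at the 5' end, which is higher in less intact RNA. Averaged over beta-actin, GAPDH and hexokinase, it was 0.707 ± 0.031 (SD, n = 4) in exposed and 0.593 ± 0.009 (SD, n = 2) in air rats. This mean was higher in 4 of 4 exposed rats than in both air rats. The two-sided exact permutation test gave p = 0.0667, the smallest that the 15 splits allow. The 12 air arrays of other times ranged from 0.606 to 0.813. By transcript, exposed minus air was 0.362 for hexokinase, 0.017 for GAPDH and -0.037 for beta-actin, so that the difference lay mostly in hexokinase. The part of RNA integrity in the results below was not tested beyond a fit with the mean over these transcripts as a covariate. Counts from that fit stand beside the main ones.

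At 6 h a small set of genes passed the test between 4 exposed and 2 air kidneys, led by receptors at the cell surface and 1 secreted stress factor. Tnfrsf12a, the receptor of the cytokine TWEAK, Gdf15, a stress-induced hormone of the TGF-beta superfamily, and Scarb1, the receptor that takes up lipid from high-density lipoprotein, rose by 4.49, 4.19 and 3.43 fold. The vessel-stabilising growth factor Angpt1 fell by 2.24 fold, and the other 12 falls were each smaller than 2-fold. Limma called 47 of 13437 genes (0.35%), 34 higher (0.253%) and 13 lower (0.0967%), at a Benjamini-Hochberg adjusted p under 0.05. Of these, 9 differed at least 2-fold, 8 of them higher. In all 47 the exposed and air rats of 6 h did not overlap, as in 24.4% of all genes tested. The median change of all genes tested was 0.01, and the median absolute change 0.107 (log2). At 1 and 3 h, with 4 air rats each, the median absolute change was 0.113 and 0.114, and 419 and 859 genes were called. The count at 6 h is of genes that passed with 2 air rats, not of all genes that changed. Unadjusted p-values under 0.05 were found for 1351 genes (10.1%). The count depended on single rats: it was 4 genes without Rat762, 3 without Rat763, 16 without Rat761 and 24 without Rat789, and only Tnfrsf12a and Scarb1 were called with every rat left out in turn. With the RNA integrity measure as a covariate 22 genes were called, 17 of them among the 47, and with the 2 groups at 6 h alone 7 were called. Fkbp5, Angpt1, Por, Slc2a1 and Aqp3 were among the genes not called with the covariate, where their changes were 1.402, -1.015, 0.58, 0.63 and 0.58, against 1.38, -1.17, 0.70, 0.67 and 0.61 without it, and Fkbp5, Angpt1 and Aqp3 among those not called without Rat761.

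**Figure D1:**
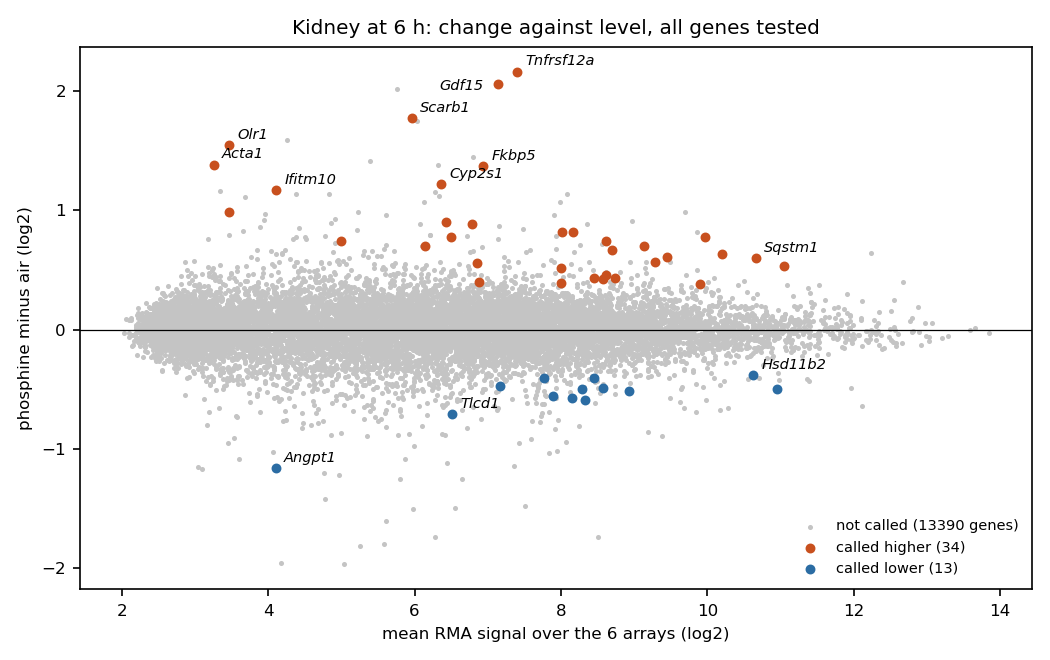
Each point is a gene, placed by its mean log2 signal over the 6 arrays (horizontal axis) and its log2 change, phosphine minus air, at 6 h (vertical axis). The 34 genes called higher are orange, the 13 called lower are blue, and the 13390 others grey. Among the called genes Tnfrsf12a, Gdf15 and Scarb1 are the highest and Angpt1 the lowest, and many uncalled genes reach changes as large as those of called ones.

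Tnfrsf12a read 7.63, 8.34, 8.002 and 8.53 (log2 signal, in the order Rat758, Rat760, Rat761, Rat789, kept from here on) in exposed kidneys, against 5.81 and 6.11 in Rat762 and Rat763. Every exposed rat lay above both air rats and above the 12 air rats of other times, which ran from 6.07 to 6.66. The change was 2.17 ± 0.23 (log2 ± SE of the fit, adjusted p = 5.09e-06, n = 4 and 2). Among 24 measured genes of kidney injury and epithelial repair it was the only one called (0.253% of all genes were called higher). Of the 24, 19 were above 0, and the list median was 0.145 against 0.01 for all genes. The injury markers Havcr1, which encodes KIM-1 (0.10 ± 0.24, adjusted p = 0.96), and Lcn2, which encodes NGAL (0.26 ± 0.37, adjusted p = 0.917), did not pass the test. Since the RNA came from whole tissue, more RNA of a gene per cell and more cells that express it cannot be told apart, here and for every gene below.

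Gdf15 signals were 7.70, 7.88, 7.68 and 8.02 after phosphine and 5.95 and 5.57 after air. The exposed rats lay close together and all above both air rats, and the change was 2.07 ± 0.28 (adjusted p = 0.000314). The 2 air rats of 6 h were themselves low: air rats of other times ran from 6.22 to 8.12, and Gdf15 differed between air at 6 h and the mean of air at 1, 3 and 24 h by -1.38 ± 0.24 (adjusted p = 0.0092). The exposed values at 6 h therefore overlapped with those of air rats at other times. Of 28 measured genes of the integrated stress response, 2 were called, Gdf15 and Nars1, both higher (0.253% of all genes were), and the list median was 0.094 against 0.01 for all genes. The transcription factor Ddit3 read 7.32, 7.52, 7.20 and 7.50 against 6.70 and 6.55, without overlap, and just missed the threshold (0.76 ± 0.18, adjusted p = 0.0556). Atf3, another factor of the same response, did not pass the test (0.12 ± 0.41, adjusted p = 0.976).

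Scarb1 had the smallest p of all genes, with signals of 6.42, 6.42, 6.71 and 6.66 in exposed and 4.82 and 4.73 in air kidneys (1.78 ± 0.13, adjusted p = 1.99e-09). No air rat of any time reached the exposed values, with the 12 others between 4.69 and 5.10. A second probe set of Scarb1 moved by 1.63. Olr1, the scavenger receptor for oxidised lipoprotein, was near background in air kidneys (2.33 and 2.53) and reached 3.62, 3.20, 4.47 and 4.60 after phosphine (1.55 ± 0.28, adjusted p = 0.00838). All exposed values of Olr1 lay above the values of all air rats, and the exposed rats differed widely among themselves. Of 13 measured lipoprotein receptors and lipid carriers, Scarb1 was the 1 called (0.253% of all genes were called higher), and the list median was 0.049. In the cholesterol synthesis list, Dhcr7, which makes cholesterol in the last step of the pathway, was higher (8.70, 9.06, 8.86 and 8.85 against 8.26 and 7.99; 0.74 ± 0.16, adjusted p = 0.0393), while 14 of the 18 measured members were not above 0 and the median was -0.20.

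**Figure D2:**
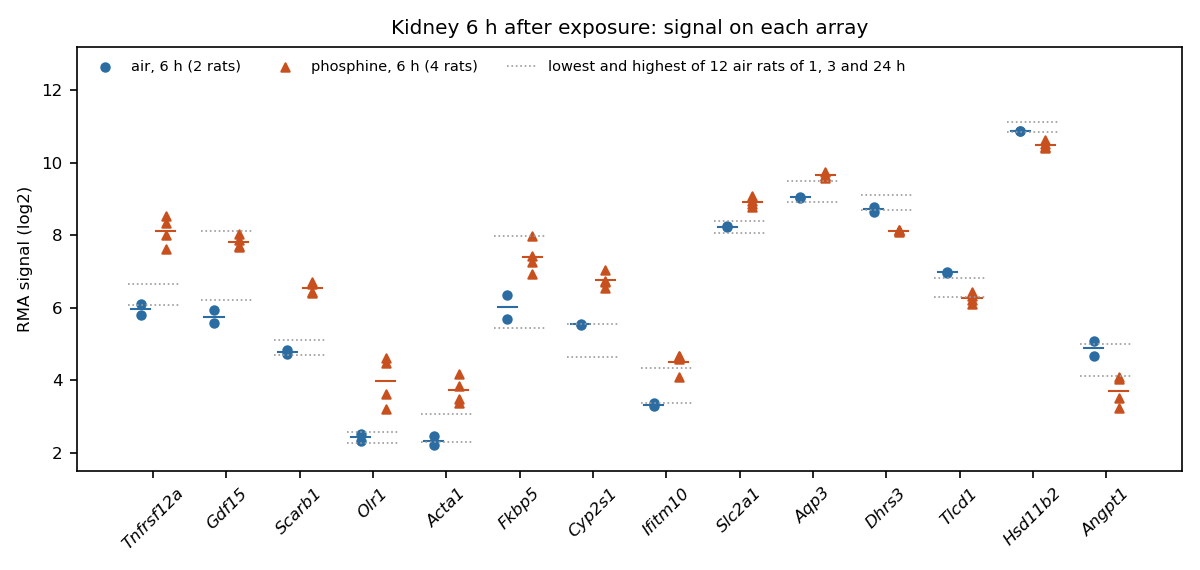
The log2 RMA signal (vertical axis) of 14 called genes is shown for each air rat (blue circles) and each exposed rat (orange triangles) at 6 h, with short bars at the group means and dotted lines at the lowest and highest of the 12 air rats of 1, 3 and 24 h. The 2 groups do not overlap in any of the 14 genes, as in all 47 called genes. The exposed values of Gdf15, Fkbp5, Ifitm10 and Tlcd1 overlap with the range of air rats of other times.

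For 6 of the genes that rose, the promoters are printed to show what sequence lies just before genes that moved together. RefSeq (GRCr8) promoters were found for 38 of the 47 called genes, and each stretch below is the 250 bases before the start, written 5' to 3' on the gene's strand. Capitals mark exact matches, on either strand, to TGATGNAA (bound by ATF4 with C/EBP), TGACGTCA (CRE), TGANTCA (AP-1), TGACNNNGC (antioxidant response element), CACGTG (E-box), GGGCGG (GC box) and CCAAT; the AP-1 and antioxidant patterns, and the antioxidant pattern and the GC box, can overlap.
Tnfrsf12a, chr10:13213649-13213898, minus strand: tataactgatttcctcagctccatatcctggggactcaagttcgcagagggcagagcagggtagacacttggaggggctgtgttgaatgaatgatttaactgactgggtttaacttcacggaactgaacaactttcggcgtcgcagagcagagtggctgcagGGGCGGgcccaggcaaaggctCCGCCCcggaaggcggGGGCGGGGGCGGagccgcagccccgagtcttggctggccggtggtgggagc
Gdf15, chr16:18838186-18838435, plus strand: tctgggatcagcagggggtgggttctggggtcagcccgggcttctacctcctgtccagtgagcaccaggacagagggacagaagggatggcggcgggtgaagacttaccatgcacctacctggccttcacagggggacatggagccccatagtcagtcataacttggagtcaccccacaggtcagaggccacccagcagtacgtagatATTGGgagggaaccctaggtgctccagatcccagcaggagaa
Olr1, chr4:164634548-164634797, minus strand: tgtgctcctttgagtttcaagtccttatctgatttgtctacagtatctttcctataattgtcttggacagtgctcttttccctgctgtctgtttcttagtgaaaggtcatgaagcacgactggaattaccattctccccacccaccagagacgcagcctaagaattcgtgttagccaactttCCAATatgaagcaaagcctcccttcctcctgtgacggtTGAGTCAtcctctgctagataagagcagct
Cyp2s1, chr1:90453074-90453323, minus strand: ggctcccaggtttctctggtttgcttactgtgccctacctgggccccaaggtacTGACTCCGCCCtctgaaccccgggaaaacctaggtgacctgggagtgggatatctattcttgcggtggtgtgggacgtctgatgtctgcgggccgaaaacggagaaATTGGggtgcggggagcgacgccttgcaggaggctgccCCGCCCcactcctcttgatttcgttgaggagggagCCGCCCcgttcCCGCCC
Sqstm1, chr10:35037751-35038000, minus strand: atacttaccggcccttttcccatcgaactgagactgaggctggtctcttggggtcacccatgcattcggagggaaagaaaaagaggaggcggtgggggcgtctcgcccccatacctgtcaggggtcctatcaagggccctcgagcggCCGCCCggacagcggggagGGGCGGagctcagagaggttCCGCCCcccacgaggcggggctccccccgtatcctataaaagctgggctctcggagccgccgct
Nars1, chr18:60275783-60276032, minus strand: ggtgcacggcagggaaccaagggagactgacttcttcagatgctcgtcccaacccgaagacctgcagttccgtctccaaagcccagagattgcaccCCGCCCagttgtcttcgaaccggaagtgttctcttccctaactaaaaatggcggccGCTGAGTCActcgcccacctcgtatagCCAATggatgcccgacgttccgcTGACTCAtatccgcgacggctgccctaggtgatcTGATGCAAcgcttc

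The promoter of Nars1 held TGATGNAA from 14 to 7 bases before the start, that of Olr1 held TGANTCA from 30 to 24 bases before it, and that of Cyp2s1 held TGACNNNGC from 196 to 188 bases before it. Among the 30 rises with a promoter, TGATGNAA was found in 2 (Nars1 and Got1), against 3.4% of all 33469 promoters of this length and 2.1% of the 12201 of genes tested. TGANTCA was found in 3 (6.3% and 4.9%), TGACGTCA in 2 (1.6% and 2.6%), TGACNNNGC in 5 (10.1% and 12.2%) and CACGTG in 0 (5.6% and 7.7%). The GC box was in 23 of 30 rises and 8 of 8 falls (30.5% and 53.4%), and CCAAT in 12 and 2 (34.0% and 34.6%). A match is a run of letters in this window, not a shown binding site.

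Several called genes act in protein synthesis, transport or breakdown. The seryl-tRNA synthetase Sars1 read 8.63, 8.71, 8.66 and 8.86 against 8.26 and 8.32 (0.43 ± 0.08, adjusted p = 0.00838), and the asparaginyl-tRNA synthetase Nars1 8.44, 8.51, 8.66 and 8.75 against 8.14 and 8.18 (0.43 ± 0.08, adjusted p = 0.0134). In both, the lowest exposed rat stood above the higher air rat and above all 12 air rats of other times. Sqstm1, the autophagy receptor p62, rose from 10.22 and 10.30 to 10.77, 10.94, 10.77 and 10.97 (0.60 ± 0.11, adjusted p = 0.00952), and 3 other probe sets of it had the same sign. Dnajc21, a co-chaperone of ribosome maturation, rose too (6.92, 7.05, 6.89 and 7.29 against 6.47 and 6.48; 0.56 ± 0.10, adjusted p = 0.00724), as did Ipo5, a nuclear import receptor (0.39), and the zinc finger gene Zfp593 (0.75). The air rats differed widely in Zfp593 (4.15 and 4.85), so that its change was 1.10 without Rat763 and 0.394 without Rat762, where it was not called, and its 2 other probe sets moved by 0.07 and 0.18. A dim second probe set of Sars1 and both others of Ipo5 had the opposite sign, between -0.11 and -0.05. None of the 17 measured ribosome biogenesis genes was called, though 17 of 17 were above 0 with a median of 0.185, and 9 were higher without overlap (13% of all genes were, 11.4% were lower and 24.4% either). Of 25 proteasome subunits 20 were above 0 (median 0.079), and of 12 heat shock chaperones 5 (median -0.06), with none called (0.35% of all genes were).

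Some called genes act in metabolism or detoxification. Cyp2s1, a cytochrome P450, read 6.72, 7.05, 6.55 and 6.73 after phosphine and 5.53 and 5.55 after air (1.22 ± 0.21, adjusted p = 0.00709). Por, the reductase that passes electrons to all microsomal P450 enzymes, read 9.52, 9.13, 9.48 and 9.31 against 8.62 and 8.70 (0.70 ± 0.12, adjusted p = 0.00838). Every exposed value of both genes lay above every air value of any time. Por was the 1 called of 17 measured genes of a list of P450 enzymes, reductase and heme (0.253% of all genes were called higher). Of these 17 genes 5 were above 0, and the median was -0.087. Also higher were Got1, the cytosolic aspartate aminotransferase (0.38 ± 0.08, adjusted p = 0.0341), and Sat1, which acetylates polyamines for breakdown and export (0.54 ± 0.12, adjusted p = 0.0345). A pair of enzymes that act on hormone-like lipids fell. Dhrs3, which reduces retinaldehyde, read 8.16, 8.16, 8.12 and 8.08 against 8.66 and 8.79 (-0.59 ± 0.11, adjusted p = 0.00859), and Hsd11b2, which inactivates corticosterone in the collecting duct, 10.62, 10.41, 10.53 and 10.44 against 10.87 and 10.89 (-0.38 ± 0.09, adjusted p = 0.0458). The membrane protein gene Tlcd1 (-0.71 ± 0.12, adjusted p = 0.00585) and the purine nucleotidase Nt5c2 (-0.49 ± 0.10, adjusted p = 0.0213) fell as well. Of 18 NRF2 targets none was called (0.35% of all genes were), and 15 were above 0. Without overlap 8 were higher (13% of all genes were), and the median was 0.175. The exporter Abcc2 was the largest (6.14, 6.06, 6.73 and 7.03 against 5.33 and 5.50; 1.07 ± 0.26, adjusted p = 0.0755), and heme oxygenase Hmox1 spread widely, from 5.73 to 7.19 in exposed rats (0.88 ± 0.43, adjusted p = 0.498).

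Transporters of the tubule mostly did not pass the test. The exceptions that rose were the glucose transporter Slc2a1 (8.94, 8.85, 8.78 and 9.09 against 8.26 and 8.23; 0.67 ± 0.14, adjusted p = 0.0208), the sodium-phosphate cotransporter Slc20a2 (6.71, 6.62, 6.81 and 6.89 against 5.97 and 5.98; 0.78 ± 0.15, adjusted p = 0.0141), the nucleoside transporter Slc28a1 (0.70 ± 0.14, adjusted p = 0.0213) and the basolateral water channel Aqp3 (9.58, 9.76, 9.64 and 9.64 against 9.06 and 9.03; 0.61 ± 0.13, adjusted p = 0.0347). Slc16a13, of the monocarboxylate transporter family (-0.56), and Slc35b3, which carries the sulfate donor into the Golgi (-0.50), fell. In each, all exposed rats lay on 1 side of both air rats, as in all 47 called genes and in 24.4% of all genes. Slc20a2 was the 1 called among 20 proximal tubule transporters, whose median was -0.04. Aqp3 was the 1 called among 10 water channels and vasopressin receptors, with a median of -0.02 (0.253% of all genes were called higher). Collecting duct principal cell markers thus moved both ways, Aqp3 up and Hsd11b2 down among 7. In the intercalated cell, which secretes acid or base, 1 of 7 markers was above 0 (median -0.15) and none was called. Its proton pump subunit Atp6v1b1 read 7.83, 7.55, 7.25 and 7.33 against 8.31 and 8.12 (-0.73 ± 0.18, adjusted p = 0.0698). Of 10 gluconeogenesis genes none was called, with a median of -0.135 and Pck1 the most changed (0.40 ± 0.17, adjusted p = 0.408). Of 22 complex I subunits and 17 genes of cytochrome c oxidase none was called, with medians of -0.003 and -0.025. Since 0.35% of all genes were called, the lack of a call in lists of these sizes says little about their members.

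Further called genes act in the cytoskeleton, in adhesion or at membranes. Vcl, vinculin, which ties actin to cell adhesions, read 8.22, 8.36, 8.70 and 8.49 against 7.75 and 7.50 (0.82 ± 0.16, adjusted p = 0.0141), and its 2 other probe sets moved by 0.61 and 0.67. The tubulin Tubb2a read 9.95, 10.34, 10.19 and 10.45 against 9.64 and 9.27 (0.78 ± 0.13, adjusted p = 0.00709). Higher as well were the phospholipid-binding Anxa1 (0.63 ± 0.12, adjusted p = 0.0146), the mitotic kinase Nek6 (0.90 ± 0.15, adjusted p = 0.00671), the centrosomal Tacc2 (0.56) and the membrane-bending Bin2 (0.88). The claudin Cldn22 (3.54, 3.26, 4.59 and 3.76 against 2.79 and 2.80) and Ifitm10 (4.09, 4.66, 4.68 and 4.58 against 3.29 and 3.37) were low in air rats, and rose by 0.99 and 1.17. Acta1, the actin of skeletal muscle, read 3.47, 3.37, 3.85 and 4.18 against 2.45 and 2.22 (1.38 ± 0.23, adjusted p = 0.00585). Of the 8 measured muscle markers it was the 1 called (0.253% of all genes were called higher), and 5 were above 0. The mean level of the list ran from 2.82 to 2.93 in exposed and from 2.64 to 2.66 in air rats. The part of muscle in the change of Acta1 was not tested. The actin bundler Dmtn (-0.57), Dock1, which activates Rac (-0.41), and the ciliary gene Pierce2 (-0.47) fell.

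Genes of mitochondrial structure were higher in 3 cases: Mfn1, which fuses outer membranes (8.62, 8.73, 8.84 and 8.87 against 8.33 and 8.27; 0.46 ± 0.09, adjusted p = 0.0196), Tomm40, the protein import channel (0.43 ± 0.10, adjusted p = 0.0382), and the inner membrane ATPase Atad3a (0.40 ± 0.09, adjusted p = 0.0318). The exposed rats lay above both air rats in each, as in every called rise and in 13% of all genes. None of the 3 was called with the integrity measure as a covariate, where their changes were 0.446, 0.395 and 0.328. Nor was any of them called without Rat761 or without Rat789. Fkbp5, which binds the glucocorticoid receptor and is induced by it, read 6.93, 7.25, 7.42 and 7.98 against 5.69 and 6.36 (1.38 ± 0.29, adjusted p = 0.0318). It was the 1 called of 20 glucocorticoid responsive genes (0.253% of all genes were called higher). Of the 20, 9 were above 0 (median -0.02), and Sgk1 gave 0.07 ± 0.33 (adjusted p = 0.982). Air rats of other times ran from 5.44 to 7.97 in Fkbp5, overlapping with the exposed rats. Angpt1 read 4.02, 4.10, 3.23 and 3.50 against 4.66 and 5.09 (-1.17 ± 0.22, adjusted p = 0.0141). It was the 1 called of 15 vessel growth factors and receptors (0.0967% of all genes were called lower). Its exposed values lay below all air values of other times (4.13 to 5.005). The metallothionein Mt2A, which binds zinc and oxidants (0.30 ± 0.21, adjusted p = 0.737), and the cytokine Il1b (0.05 ± 0.35, adjusted p = 0.986) did not pass the test. Further falls were of the lysosomal sorting receptor Igf2r (-0.50 ± 0.11, adjusted p = 0.0428), the chromatin remodeller Smarca2 (-0.51 ± 0.10, adjusted p = 0.0141) and Ankrd46 (-0.40). Tmbim1 (0.82) and the RNA-binding Pcbp4 (0.52) rose. None of 12 proximal tubule, 6 loop of Henle, 9 endothelial or 10 macrophage markers was called (0.35% of all genes were).

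**Figure D3:**
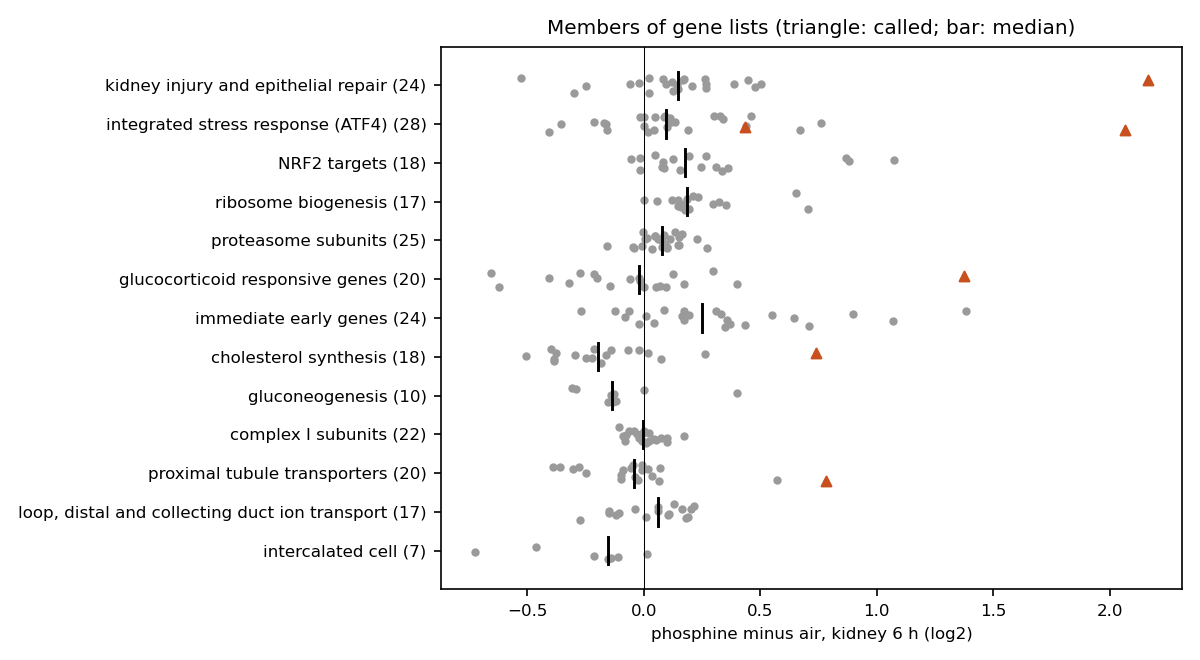
Each point is 1 measured member of a gene list, placed by its log2 change, phosphine minus air, in kidney at 6 h (horizontal axis), with the number of members in brackets, orange triangles for called genes and a black bar at the list median. The 13 medians lie between -0.20 for cholesterol synthesis and 0.25 for immediate early genes, and of these lists the integrated stress response holds 2 called genes and the others 0 or 1.

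The comparison with the other times asked which 6 h changes were already there earlier and which remained at 24 h, in separate rats with their own air controls. All times were in the same fit with a common estimate of spread for each gene, so that calls at different times are not independent. At 3 h, where 6.39% of all genes were called and 2.86% were called higher, 23 of the 34 rises were called too (67.6% of the rises, 5.99% of the 384 genes higher at 3 h), and 34 of 34 had the same sign. At 1 h 4 of 34 were called (3.12% of all genes were called, 2.12% higher, and the 4 were 1.4% of the 285 genes higher then): Tnfrsf12a, Gdf15, Por and Sat1. At 24 h none was called and 14 of 34 had the same sign, among 0 genes called in all (0%) and 5.49% of genes with an unadjusted p under 0.05 by limma. Of the 13 falls 6 were called at 3 h (46.2%, against 3.54% of all genes, and 1.26% of the 475 genes lower then), Hsd11b2, Pierce2, Igf2r, Slc35b3, Smarca2 and Tlcd1, and 0 at 1 h (0.997% of all genes) and 24 h. The 34 rises had a median change of 0.53 at 3 h. Because these genes were chosen by their values at 6 h, their sizes at both times were compared only by the test of the difference.

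Differences between the times were then tested directly. The effect on Scarb1 was 0.12 ± 0.10 at 1 h, 1.33 ± 0.10 at 3 h, 1.78 at 6 h and -0.11 ± 0.10 at 24 h, and the value at 6 h was above that at 1 h by 1.66 ± 0.16 (adjusted p = 2.5e-06). Olr1 (1.61 ± 0.36), Cyp2s1 (1.29 ± 0.27), Tomm40 (0.63 ± 0.12) and Atad3a (0.53 ± 0.11) also had larger effects at 6 h than at 1 h. Dhrs3 was the 1 called gene whose effect at 6 h differed from that at 3 h, 0.14 at 3 h and -0.59 at 6 h (-0.74 ± 0.14, adjusted p = 0.026). Tnfrsf12a (2.38 ± 0.30), Gdf15 (2.56 ± 0.36) and Scarb1 (1.89 ± 0.16) were the 3 genes whose effect at 6 h was above that at 24 h (0.0223% of genes). Each also passed with any 1 exposed rat of 6 h left out. The count of such genes was 14 without Rat758 and 6 without Rat760. For Gdf15, whose air rats of 6 h were low, the exposed kidneys at 6 h stood 0.458 above air of 24 h.

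Other genes had moved earlier and were not called at 6 h. Of 24 immediate early genes 12 were called at 1 h, all higher (2.12% of all genes were), with a median of 0.741. At 6 h 0 were called (0.35% of all genes were), with 19 of 24 above 0 and a median of 0.25. The counts are not a test between the times, since 1 h had 4 air rats and 6 h had 2. Of this list only Fosb passed the test of the difference, and Ccn1 (1.38) and Egr1 (1.07) were still above 0 at 6 h without a call. Of 20 glucocorticoid responsive genes 7 were called at 1 h, all higher, against the same 2.12% of all genes, with a median of 0.653. Atf3 changed by 3.96 ± 0.34 at 1 h and 0.12 at 6 h, and the difference was -3.84 ± 0.53 (adjusted p = 0.000565). The immediate early gene Fosb went from 3.27 to 0.17 and the clock-output repressor Nfil3 from 1.66 to -0.58, with differences of -3.10 ± 0.52 and -2.25 ± 0.24. Between 3 and 6 h the cell cycle inhibitor Cdkn1a went from 2.20 to 0.52 (-1.68 ± 0.34, adjusted p = 0.0489), the muscle ubiquitin ligase Trim63 from 1.49 to 0.18 (-1.31 ± 0.20, adjusted p = 0.00235) and the phosphate transporter Slc20a1 from 1.80 to 0.57 (-1.22 ± 0.20, adjusted p = 0.00639). In all, 45 genes differed between 6 and 1 h (0.335%), 17 with a higher and 28 with a lower effect at 6 h, and 16 between 6 and 3 h (0.119%), 7 with a higher (0.0521%) and 9 with a lower effect at 6 h (0.067%). The first count was 12 without Rat762, 7 without Rat763 and 26 without Rat758. The second lay between 1 and 7 with any rat of 6 h left out, with 3 without Rat762, 1 without Rat763, 5 without Rat758, Rat760 or Rat761, and 7 without Rat789.

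**Figure D4:**
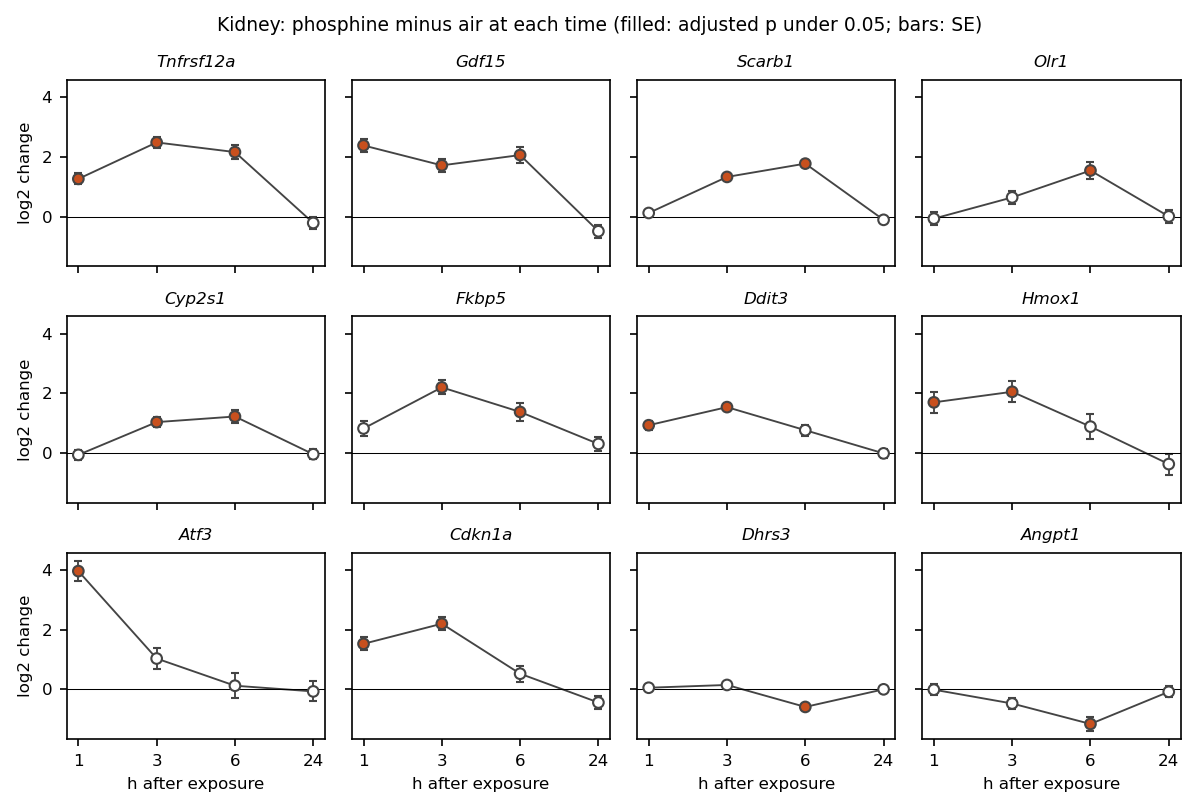
For 12 genes the log2 change, phosphine minus air, in kidney is plotted against time after exposure (1, 3, 6 and 24 h, evenly spaced), with bars of 1 SE of the fit and filled points where the adjusted p was under 0.05. Scarb1, Olr1 and Cyp2s1 are higher at 6 h than at 1 h, Atf3 goes from 3.96 to 0.12, and none of the 12 genes is called at 24 h.

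The same rats gave brain, heart, liver and lung, and the kidney effect at 6 h was set against the mean effect of these 4 tissues. It differed for 16 genes (0.119%), 12 with a higher (0.0893%) and 4 with a lower effect in kidney (0.0298%). Of the 16, 9 were among the 47 (0.35% of all genes), and both comparisons use the same kidney arrays of 6 h. Scarb1 changed by 1.78 in kidney and by -0.12, 0.16, -0.35 and -0.66 in brain, heart, liver and lung, a difference of 2.02 ± 0.33 (adjusted p = 0.000127). Gdf15 changed by -0.24 to 0.43 elsewhere (1.94 ± 0.44, adjusted p = 0.03), Olr1 by -0.12 to 0.20 (1.49 ± 0.27, adjusted p = 0.00131) and Cyp2s1 by -0.58 to 0.14 (1.38 ± 0.29, adjusted p = 0.0112). The air kidneys of 6 h were low in Gdf15. Its kidney change was 0.88 against air kidneys of all times pooled (limma, adjusted p = 0.0605) and 0.248 against air of 3 h. Cldn22 (1.14 ± 0.21), Bin2 (1.09 ± 0.24), Vcl (0.85 ± 0.15) and Sqstm1 (0.62 ± 0.12) were also higher in kidney than in the mean of the others. Tnfrsf12a differed from the mean (1.37 ± 0.32, adjusted p = 0.0359) and yet changed by 2.46 in heart, against 2.17 in kidney. For Fkbp5 (0.73 ± 0.35), Por (0.25 ± 0.21) and Sat1 (0.15 ± 0.19) the difference did not pass the test. The count was 1 without Rat762, 5 without Rat763, 9 without Rat761 and 10 without Rat789, and Scarb1 was lost without Rat762 (adjusted p = 0.055).

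**Figure D5:**
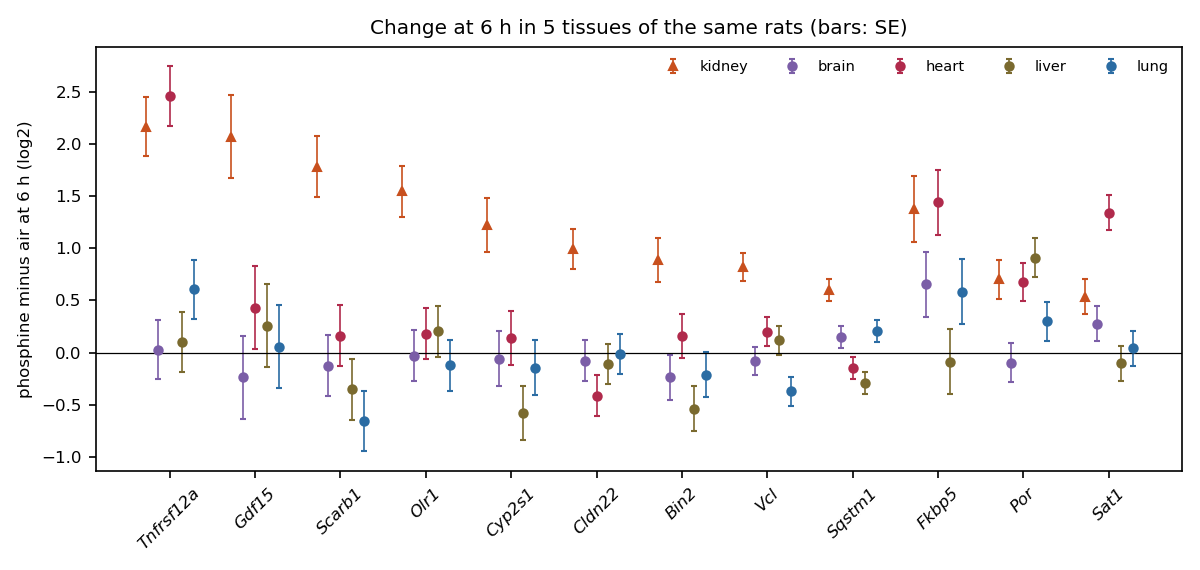
The log2 change at 6 h (vertical axis, phosphine minus air, bars of 1 SE) is shown for 12 genes called in kidney, in kidney (orange triangles) and in brain, heart, liver and lung of the same rats (circles). For Scarb1, Olr1, Cyp2s1 and Cldn22 kidney stands above the 4 others, while Tnfrsf12a and Fkbp5 reach 2.46 and 1.44 in heart.

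With 2 air kidneys at 6 h, these were compared with the air kidneys of other times. They differed in 23 genes (0.171%), 10 higher (0.0744%) and 13 lower (0.0967%), and none of these was called with Rat762 or Rat763 left out, where 675 and 800 genes had an unadjusted p under 0.05. The differences were led by clock genes: Dbp differed by 1.79 ± 0.28, Bhlhe41 by 1.38 ± 0.22, Bmal1 by -1.60 ± 0.24 and Npas2 by -1.41 ± 0.24, and of these 4 none was called between exposed and air rats at 6 h. Gdf15 was the 1 gene of the 47 among them. Of the 47 genes, 36 were called against the air rats of 1 h, of 3 h and of 24 h alike, as were 551 of all genes (4.1%). These comparisons use the same 4 exposed arrays by which the 47 were called. The other 11 were Gdf15, Fkbp5, Zfp593, Dhcr7, Ankrd46, Nt5c2, Slc35b3, Smarca2, Slc16a13, Dmtn and Tlcd1. For 28 of 34 rises all exposed rats lay above all 12 air rats of other times (4.47% of all genes did), and for 8 of 13 falls below them (1.76%). The exposed kidneys differed from air of other times in many more genes, 2122 with air of 1 h, 1149 with air of 3 h and 1374 with air of 24 h, comparisons in which exposure and the time after it cannot be told apart.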

How the data were processed

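Kidney RNA was labelled by a 3' in vitro transcription kit and hybridised to Affymetrix rat perfect-match arrays, per the labels' protocols. The authors deposited log2 signals of 31139 probe sets, and Partek and RMA are named in the submitters' processing notes, without versions. Of these, 97 controls, 11407 probe sets with no gene and 573 with several were left out, and each of 13437 genes was represented by its brightest probe set on average over the arrays (symbols from RefSeq, GRCr8). Limma 3.58.1 (R 4.3.3) was fitted to 30 kidney arrays with a mean per group, and to all arrays of 5 tissues for the tissue comparison, with a mean per tissue, exposure and time. A call needed a p under 0.05 after Benjamini-Hochberg adjustment over all genes. Errors beside changes are standard errors of the fit. Signals carry no count, and the number of rats limits the precision. Differences understate changes of genes near background.

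All called genes were named, with a panel of genes from earlier work, the most changed member of lists without a call, and the 5 largest called differences between times, tissues and air groups. The members and gene lists were chosen with earlier results of these data known. The fit was tested on simulated data. Alternatives were other air groups, median centring, quantile normalization, array weights, trended and robust variance, a filter on dim probe sets, the mean over probe sets, only the 2 groups, leaving out 1 air array of 1 h (Rat720) with hepatocyte signal, the integrity measure as a covariate, the rat as a block and each rat left out. Tables and figures were made with pandas 2.3.3 and matplotlib 3.10.9. Blood arrays were not used here.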

Additional observations from a re-analysis of the deposited data

Results flagged for a closer look

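Exposed kidneys of 4 rats were checked for a single rat far from the rest in 56 genes. In Ifitm10, Rat758 was the lowest at 4.09, with the nearest rat at 4.58 and the highest at 4.68, a gap of 0.835 of the range, just past Dixon's limit. Chance gives about 1 such gene in 20.

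Effects that differed between times by a test of the difference were found in several genes named here. From 3 to 6 h the effect was lower in Dhrs3 (-0.74), Cdkn1a (-1.68), the Ras regulator Rasa2 (-1.69), Trim63 (-1.31), Slc20a1 (-1.22) and the Rap1 activator Rapgef5 (-1.13). From 1 to 6 h it was higher in Scarb1 (1.66), Olr1 (1.61), Cyp2s1 (1.29), Tomm40 (0.63) and Atad3a (0.53). Over the same interval it was lower in Dhrs3 (-0.64), Atf3 (-3.84), Fosb (-3.10), Nfil3 (-2.25), the EGF receptor inhibitor Errfi1 (-1.85) and Noct (-1.81). At 6 h it was above that at 24 h in Tnfrsf12a (2.38), Gdf15 (2.56) and Scarb1 (1.89). For Gdf15 the air rats of 6 h were themselves low against air of other times.

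The kidney effect at 6 h was above the mean of brain, heart, liver and lung in Tnfrsf12a (1.37), Gdf15 (1.94), Scarb1 (2.02), Olr1 (1.49), Cyp2s1 (1.38), Cldn22 (1.14), Bin2 (1.09), Vcl (0.85) and Sqstm1 (0.62). For Gdf15 the same low air kidneys of 6 h enter the difference. Among genes not called in kidney itself, it was above the mean of the other tissues in Ddit4l, an inhibitor of mTOR (1.93), and below it in Oacyl (-1.54).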

How the results depend on the processing

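Of the 47 genes called at 6 h, all kept their sign in the 19 other settings wherever they were measured (41 of 47 with the filter on dim probe sets), and over genes and settings a call held 616 times and was lost 271 times. The count of calls was 22 with the integrity covariate, 2122, 1149 and 1374 with air of 1, 3 and 24 h, 1676 with all air rats pooled, 453 with array weights, 7 with the 2 groups alone, and 3 to 52 with 1 rat left out. With dim probe sets filtered out it was 64, with trended and robust variance 59. The count of effects differing between 6 and 3 h was 88 with weights, 8 with the mean of probe sets and 1 to 7 with a rat left out, and between 6 and 1 h 121 and 7 to 45. Between 6 and 24 h it was 11 with median centring, 157 with weights, 20 with trended and robust variance, 38 with the filter, 18 with the mean of probe sets, 7 with quantile normalization and 3 to 14 with a rat left out. Between kidney and other tissues it was 227 with weights, 5 with the filter and 1 to 18 with a rat left out. For air at 6 h against other air it was 204 with weights and 0 with either rat left out. Median centring turned the split of higher and lower from 10 and 13 to 6 and 13 for air, from 7 and 9 to 6 and 13 for 6 against 3 h, and from 3 and 0 to 9 and 2 for 6 against 24 h.

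Uncalled genes changed sign in some settings. Atf3 was -0.02 without Rat763, -0.075 without Rat789 (0.255 without Rat762), -0.34 with pooled air, -1.02 with air of 3 h and -0.50 with air of 24 h. Sgk1 was 0.408 without Rat763, -0.12 without Rat761, -0.27 without Rat762, -0.65 with pooled air, -1.05 with air of 1 h, -0.43 with air of 3 h and -0.83 with air of 24 h. Lcn2 was -0.015 without Rat789 and 0.493 without Rat758, Havcr1 -0.068 without Rat760, 0.245 without Rat758 and -0.19 with air of 1 h, and Cdkn1a -0.30 with air of 1 h and -0.12 with air of 24 h. Il1b was -0.37 without Rat763, 0.466 without Rat762, -0.086 with pooled air, -0.10 with air of 3 h, -0.28 with air of 24 h and -0.068 with the covariate. Ddit3 passed the threshold in 7 settings, among them the filter (0.76) and air of 1 h (0.58). The cause was not tested. No paired analysis was possible because exposed and air kidneys came from different rats and share no number. With the rat as a replicate block across tissues, 20 genes rather than 16 differed between kidney and the other tissues, and the correlation within rats was 0.027.

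The 2 air rats of 6 h limit every comparison, and the calls rest on the assumption that they vary like the other kidney groups. Air mean signals of Olr1, Acta1, Ifitm10 and Cldn22 lay below the median of all probe sets, where signal over background is small.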

Other observations

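Several further gene groups held no called gene at 6 h, where 0.35% of all genes were called. Of 16 measured genes of the endoplasmic reticulum's unfolded protein response 11 were above 0 (median 0.07), with the co-chaperone Dnajb9 the most changed (0.48 ± 0.17, adjusted p = 0.293). Of 14 targets of p53, 6 were above 0 (median -0.013), and of 14 catalase, superoxide dismutase and peroxidase genes 7 (median 0.015), led by Gpx4, which reduces lipid peroxides (0.19 ± 0.07, adjusted p = 0.363). Of 19 genes of fatty acid oxidation and fuel choice 6 were above 0 (median -0.059), and their regulator Ppara gave 0.66 ± 0.27, adjusted p = 0.367. Of 23 chemokines, cytokines and feedback genes 13 were above 0 (median 0.047), with the chemokine Ccl20 the most changed (0.63 ± 0.26, adjusted p = 0.386). Of 22 cell division genes 17 were above 0 (median 0.101), with the mitotic kinase Plk1 the most changed (0.44 ± 0.19, adjusted p = 0.422). Of 16 clock genes 5 were above 0 (median -0.06), and Cry1, a repressor in the clock, gave 0.80 ± 0.21, adjusted p = 0.101.

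Cell type markers without a call included those of the podocyte (3 of 5 above 0, median 0.031), the distal convoluted tubule (2 of 5, median -0.182) and smooth muscle, mesangium and renin cells (6 of 8, median 0.228), with the contractile gene Tagln the most changed of the last (0.51 ± 0.20, adjusted p = 0.34). Of 6 fibroblast markers 1 was above 0 (median -0.075). Neutrophil markers had a mean of 2.88 to 2.95 in exposed and 2.87 to 2.95 in air kidneys.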
